A study of Vitis vinifera with 16 samples.

Results

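The PR-10 genes of the chromosome 5 cluster of grapevine were the 7 genes VIT_05s0077g01530, VIT_05s0077g01540, VIT_05s0077g01550, VIT_05s0077g01560, VIT_05s0077g01570, VIT_05s0077g01580 and VIT_05s0077g01600, taken by identifier from the 30661 genes of the deposited table. All 7 were present. The genes were taken by their place in the tandem cluster and not by a threshold on these values, though the list was drawn up with earlier results of these data known. The study names VIT_05s0077g01570 and VIT_05s0077g01600 "Pathogenesis protein 10", in a list of genes it picked on these samples for being higher after a treatment. The other 5 carry no name in the table or in the study, and their family is taken from the list.

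PR-10 proteins are the class of pathogenesis-related proteins that mostly stay inside the cell, whereas most other PR classes are secreted. They are small, share the fold of the major birch pollen allergen and hold a hydrophobic pocket that can bind plant hormones and phenolic compounds, and ribonuclease activity has been described for some of them. In grapevine, as in other plants, they are encoded by tandem gene families, and members of the family are known to be induced by pathogens, wounding and defense hormones while other members are expressed in healthy tissue.

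Leaf RNA of cv. Garnacha Blanca (Vitis vinifera, grafted on rootstock 110R) was sequenced 24 h after spraying with one of 3 products or with water, in 16 libraries. Aki was Akivi, a formulated extract of Dittrichia viscosa, at 0.521 g/L. BL was the strain Bacillus velezensis UdG as lyophilized cells and BF the same strain as fresh cells, each at 100000000 CFU/mL. NTC was the control sprayed with water. Each of the 4 groups had 4 biological replicates (R1 to R4), each pooled from 2 leaves of each of 5 plants. The BL product had been dried with skimmed milk, BF was concentrated in its own culture supernatant and the growth media of both differed, and NTC held neither, so the bacteria and these carriers cannot be told apart. The randomized blocks corresponded to the treatments, so block and treatment cannot be told apart either. BL and BF were paired in the study to find responses to the bacterium that do not depend on freeze-drying.

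The values are FPKM, which divide a gene's fragments by its length and by the library's total on genes. That total was 11078501 to 16991936 fragments. The study left out Aki_R1, BL_R1, BF_R1 and NTC_R3 because they stood apart from their groups in its principal component analysis. Fold changes are therefore given for the 12 libraries that the study retained (3 per group), with the value over all 16 libraries beside them. Since the 12 were chosen on these data, a separation of groups among them is not independent evidence. Fold changes are differences of log2(FPKM + 0.1) with their standard error (SE) from limma, with p-values adjusted by Benjamini-Hochberg over all genes tested (20078 with 12 libraries and 20246 with 16). A gene was called where the adjusted p was 0.05 or less and the log2 fold change at least 1.4 in size. Leaf marker genes were not checked, because the identifiers could not be paired with gene names here.

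The 7 genes differed widely in level, and 1 of them held nearly all of the signal (see the plot of FPKM in each library). VIT_05s0077g01580 accounted for 92.2 to 96.1% of the summed FPKM of the 7 genes in each library, and it ranked between place 96 and place 449 among all genes of a library. The summed FPKM were 559 ± 267 in Aki, 445 ± 95.2 in BL, 349 ± 49.5 in BF and 335 ± 138 in NTC (SD, n = 4 each). VIT_05s0077g01530 came second in 12 of 16 libraries, and VIT_05s0077g01570 in the other 4. VIT_05s0077g01600 lay below VIT_05s0077g01570 in 15 of 16 libraries and above VIT_05s0077g01560 in 13 of 16. VIT_05s0077g01540 and VIT_05s0077g01550 were at the limit of detection, with 3 fragments or fewer in 11 of 16 libraries each and 0 fragments in 5 of 16 each. FPKM are per length, which allows for gene length. Only uniquely mapping reads were counted, so the levels of these tandem genes, their order and their shares are uncertain to that extent.

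**Figure D1:**
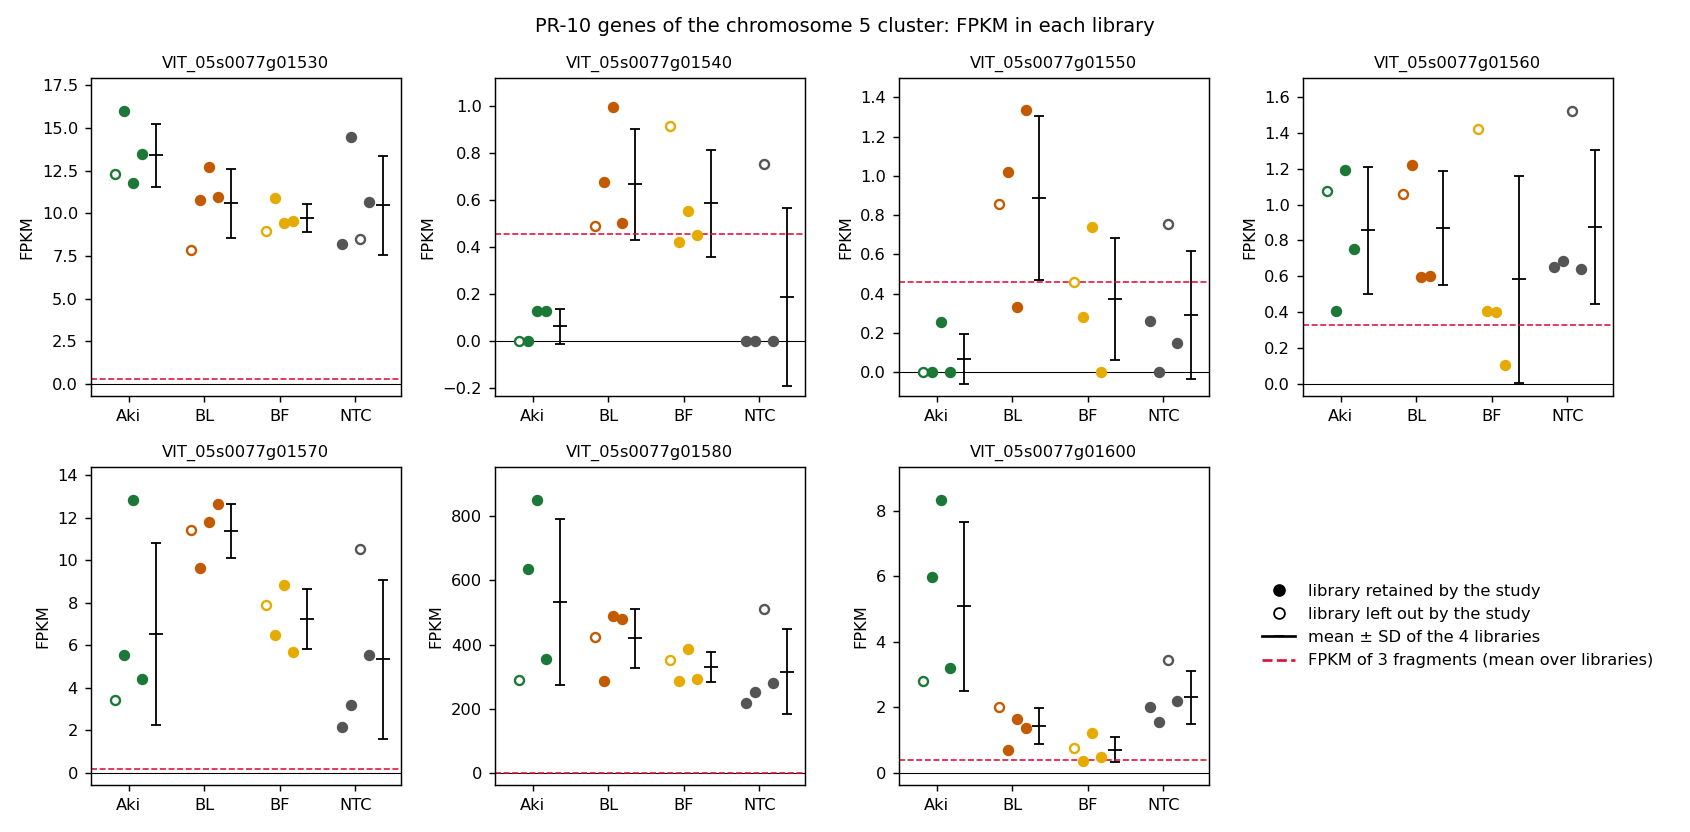
FPKM of the 7 PR-10 genes (1 panel each, linear axes of different range) in the 4 libraries of Aki, BL, BF and NTC, drawn from R1 to R4 within a group. Filled points are libraries that the study retained and open points those it left out, the black marks give the mean ± SD of 4 libraries, and the dashed line is the FPKM of 3 fragments. VIT_05s0077g01600 lay between 2.81 and 8.33 FPKM in Aki and between 0.346 and 1.21 FPKM in BF.

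Replicate 3 had the highest summed level of the cluster in each group, though by little in BL. NTC_R3 was the highest of the 4 NTC libraries for 6 of the 7 genes, the exception being VIT_05s0077g01530. In Aki, R3 was the highest library for 5 of the 7, in BL for 3 and in BF for 4. The summed FPKM of the cluster were highest in R3 in every group, at 886 in Aki, 516 in BL, 408 in BF and 538 in NTC, and so was VIT_05s0077g01580. In BL the lead was small, since the sum in BL_R4 was 506. The retained set drops R3 from NTC and keeps it in the other 3 groups. With NTC_R3 alone added to the 12 retained libraries, the called genes of the cluster numbered 0 in BL against NTC and 1 each in BF against NTC, Aki against BL and Aki against BF. Each of these contrasts had 2 without it. With NTC_R3 added, 20136 genes were tested. The calls among them were 297 higher and 227 lower in BL against NTC and 259 and 152 in BF against NTC. They were 257 and 173 in Aki against BL and 248 and 203 in Aki against BF.

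Against NTC, 0 of the 7 genes were called in Aki with the 12 retained libraries and 0 with all 16, where 1.68% and 0.38% of all genes tested were called. By unadjusted p under 0.05, there were 3 of 7 with either set of libraries. Counts by unadjusted p have no share of all genes beside them here and are not read as a result. With voom weights on rebuilt fragments, 1 was called with 12 libraries and 0 with 16. Voom called 212 genes higher and 196 lower of 20078 with 12 libraries, and 87 higher and 4 lower of 20246 with 16. In BL, 2 of 7 were called against NTC with 12 libraries and 1 with 16, where 3.83% and 2.59% of all genes were called. In BF, 2 of 7 were called against NTC with either set, where 2.73% and 2.27% of all genes were called. Between products, 2 of 7 were called in Aki against BL with 12 libraries and 3 with 16 (2.32% and 2.37% of all genes), and 2 of 7 in Aki against BF with either set (2.42% and 2.22% of all genes). In BL against BF, 0 of 7 were called with either set, where 0% and 0.0395% of all genes were called, and 1 of 7 had an unadjusted p under 0.05 with each. Voom on the fragments also called 0 of 7 there, beside 0 of all genes with 12 libraries and 5 higher and 1 lower with 16. With 12 libraries, VIT_05s0077g01540 was among the called genes of BL and BF against NTC and of Aki against BL and BF. It passed the filter on low values through the Bacillus groups alone, as set out below, so no support is read from these calls. The medians of the 7 log2 fold changes with 12 libraries were 0.80 in Aki, 0.70 in BL and 0.36 in BF against NTC, beside -0.01, 0.05 and 0.04 over all genes tested. With all 16 libraries they were 0.35, 0.46 and 0.13, beside 0.00, 0.03 and -0.03. The value of 0.80 in Aki is that of VIT_05s0077g01540, which had 2 fragments in the retained Aki libraries and 0 in those of NTC, and the median in Aki was 0.31 with a pseudocount of 1 FPKM and 1.02 with one of 0.01 FPKM. No order of the groups is read from these medians. The 3 contrasts share the NTC libraries, as the contrasts of Aki with BL and with BF share the Aki libraries.

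**Figure D2:**
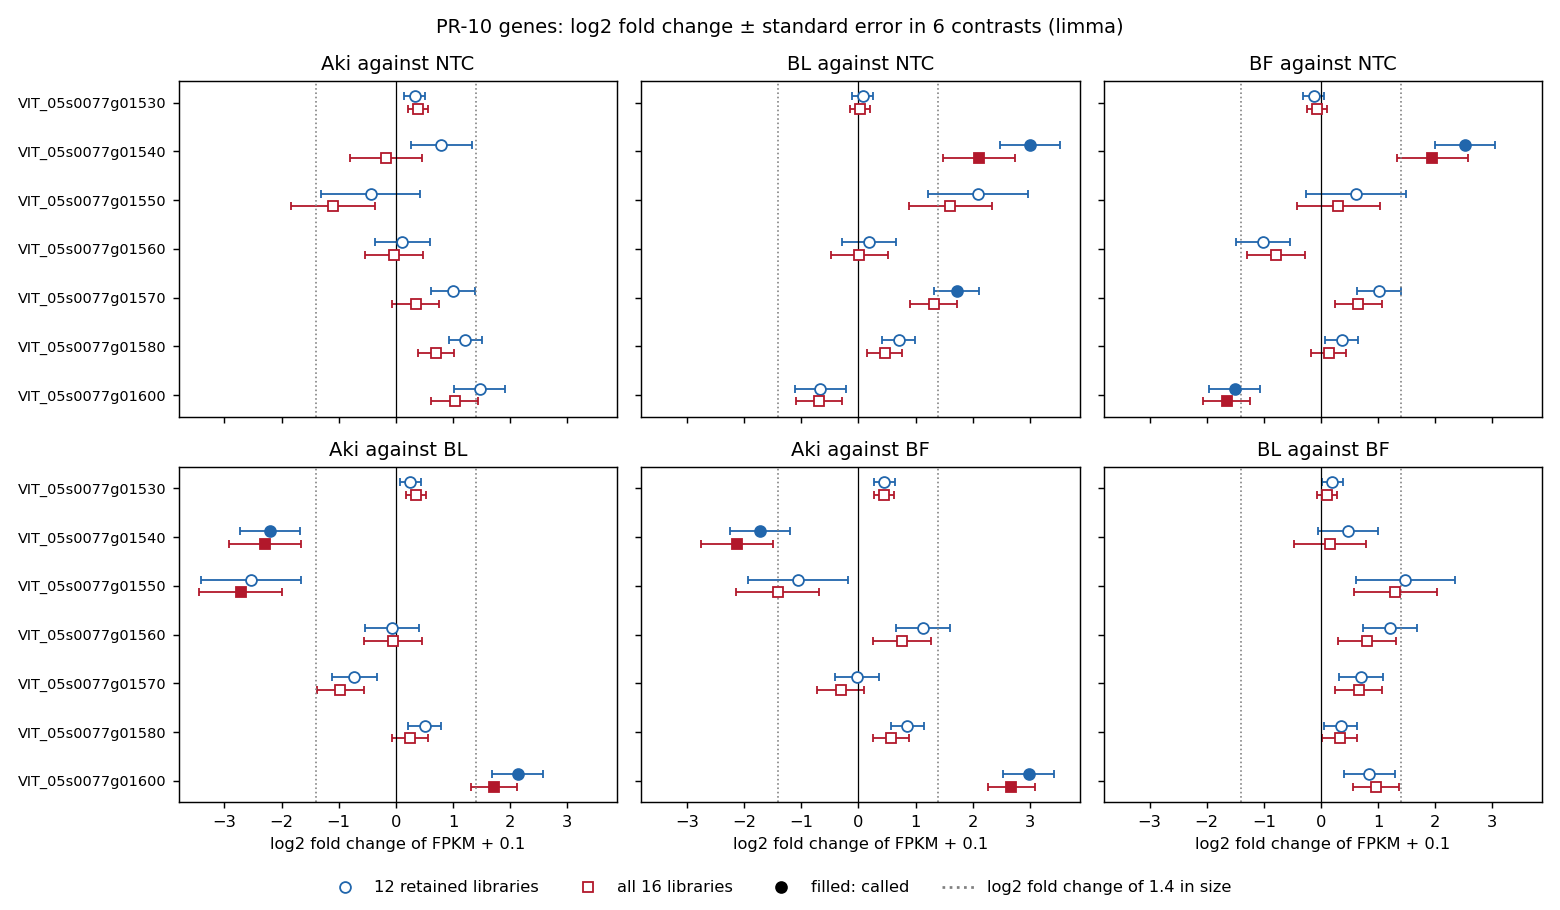
Log2 fold change of FPKM + 0.1 (x axis) of the 7 PR-10 genes (y axis) in 6 contrasts, with bars of ± 1 SE. Circles are fits over the 12 retained libraries and squares fits over all 16, filled symbols are called genes, and dotted lines mark 1.4 in size. VIT_05s0077g01600 is filled in both fits of Aki against BL and of Aki against BF, to the right of 0.

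VIT_05s0077g01600, named Pathogenesis protein 10 in the study, was the member that differed most firmly between the products. It had 2.81, 5.99, 8.33 and 3.20 FPKM in Aki (R1 to R4), 2.00, 0.692, 1.63 and 1.36 FPKM in BL, 0.747, 0.346, 1.21 and 0.492 FPKM in BF, and 2.00, 1.56, 3.46 and 2.19 FPKM in NTC. Every Aki library lay above every BL and every BF library, and every BF library lay below every NTC library. The values rest on 23 to 80 fragments in Aki, 5 to 20 in BL, 3 to 8 in BF and 12 to 28 in NTC. In bulk leaf, more or fewer cells that express a gene and more or less RNA per cell cannot be told apart.

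In Aki, VIT_05s0077g01600 was 4.75-fold the level of BL by the means of the retained libraries, with a log2 fold change of 2.13 ± 0.45 (SE, adjusted p = 0.0072). Over all 16 libraries the log2 fold change was 1.72 ± 0.41 (adjusted p = 0.0091). Against BF, Aki was 8.56-fold higher, with a log2 fold change of 2.98 ± 0.45 (adjusted p = 0.00085), and 2.68 ± 0.41 over all 16 libraries (adjusted p = 0.00028). Both differences were called in 29 of 29 alternatives, with log2 fold changes of 1.57 to 2.51 against BL and 1.98 to 3.43 against BF. These were the only calls on the cluster that were kept under all alternatives run.

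Against NTC, the products lay on both sides of the control for VIT_05s0077g01600. The log2 fold change was 1.47 ± 0.45 in Aki (adjusted p = 0.065), -0.66 ± 0.45 in BL (adjusted p = 0.33) and -1.51 ± 0.45 in BF (adjusted p = 0.038). Of these only the fall in BF was called, and over all 16 libraries it was -1.65 ± 0.41 (adjusted p = 0.011). That call is not firm within the 12 libraries, because it was lost when Aki_R2, BF_R2, BF_R4, NTC_R1, NTC_R2 or NTC_R4 was left out, with log2 fold changes of -1.51, -1.18, -1.39, -1.47, -1.64 and -1.41 in that order. The study, which used edgeR, lists VIT_05s0077g01600 as upregulated after Aki. Here the rise in Aki, which missed the threshold, passed it without Aki_R4 (1.84, adjusted p = 0.038) and without BF_R3 (1.47, adjusted p = 0.035), and had 1.03 ± 0.41 (adjusted p = 0.37) over all 16 libraries. It was also called with voom weights on the fragments of the 12 libraries (1.49, adjusted p = 0.036) and in a separate fit of Aki and NTC (1.47, adjusted p = 0.037). With a pseudocount of 1 FPKM its adjusted p was 0.026 at a log2 fold change of 1.16, under the size of 1.4. The group means were 5.08 ± 2.59 FPKM in Aki, 1.42 ± 0.552 in BL, 0.698 ± 0.378 in BF and 2.30 ± 0.813 in NTC (SD, n = 4 each), which puts NTC second, between Aki and BL. No neighbours in this order passed the test against each other.

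VIT_05s0077g01580, the leading gene of the cluster, had 290, 636, 852 and 354 FPKM in Aki, 424, 285, 488 and 478 FPKM in BL, 351, 287, 387 and 293 FPKM in BF, and 218, 253, 512 and 279 FPKM in NTC. The groups overlapped in all 6 contrasts over 16 libraries, and Aki held the highest library as well as R1 and R4 within the range of NTC. Among the retained libraries every Aki value lay above every NTC value. The log2 fold change in Aki against NTC was 1.21 ± 0.29 with an adjusted p of 0.027, so it passed the test of difference and stayed under the size of 1.4 that a call required. It passed that size without Aki_R4 (1.56, adjusted p = 0.0049). Over all 16 libraries it was 0.70 ± 0.31 (adjusted p = 0.44), and it was 0.95 (adjusted p = 0.19) with NTC_R3 alone added to the 12 and 0.96 (adjusted p = 0.12) with Aki_R1 alone added. In BL the log2 fold change was 0.70 ± 0.29 (adjusted p = 0.11) and in BF 0.36 ± 0.29 (adjusted p = 0.47). The 95% interval of the difference of Aki from BL was -0.12 to 1.14 and of Aki from BF 0.22 to 1.48, neither with an adjusted p of 0.05 or less.

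The ratio of VIT_05s0077g01600 to VIT_05s0077g01580 within a library was lower in both Bacillus groups than in Aki and NTC. This ratio was chosen after the values were seen and is given as a description without a test. Per 1000 FPKM of VIT_05s0077g01580, VIT_05s0077g01600 had 9.69, 9.41, 9.78 and 9.06 FPKM in Aki, 4.72, 2.43, 3.34 and 2.85 in BL, 2.13, 1.203, 3.13 and 1.68 in BF, and 9.20, 6.16, 6.75 and 7.83 in NTC. Every BL and BF library lay below every Aki and NTC library, including the 4 that the study left out. How many ratios of other gene pairs separate in the same way is not given here, so the separation is not read as particular to this pair. Aki and NTC overlapped, with NTC_R1 at 9.20 above Aki_R4 at 9.06, and so did BL and BF. The ratio in NTC_R3, 6.75, lay inside the range of the other NTC libraries although both of its levels were the highest of NTC. In Aki the ratio spanned 9.06 to 9.78 while the levels of the gene spanned 2.81 to 8.33 FPKM. A ratio within a library shows that the 2 genes differed unequally between the groups, not which of them changed.

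**Figure D3:**
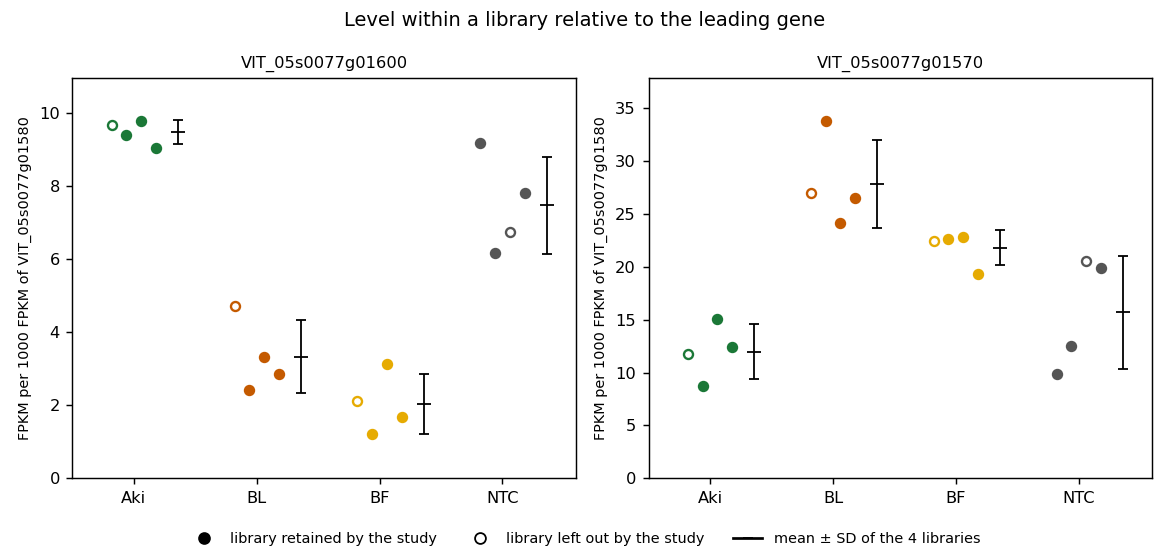
FPKM of VIT_05s0077g01600 (left) and VIT_05s0077g01570 (right) per 1000 FPKM of VIT_05s0077g01580 in the same library (y axes, from 0), for the 4 libraries of each group. Filled points are retained libraries, open points those left out and black marks the mean ± SD. For VIT_05s0077g01600 the BL and BF libraries lay between 1.203 and 4.72 and the Aki and NTC libraries between 6.16 and 9.78.

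VIT_05s0077g01570, the other gene named Pathogenesis protein 10, was highest in BL. It had 3.41, 5.53, 12.8 and 4.39 FPKM in Aki, 11.4, 9.62, 11.8 and 12.7 FPKM in BL, 7.89, 6.49, 8.82 and 5.68 FPKM in BF, and 2.14, 3.17, 10.5 and 5.54 FPKM in NTC. The BL libraries were the most alike, and each lay above every BF library. They also lay above every retained NTC library, but NTC_R3 fell among them and Aki_R3 lay above them. By group mean the order was BL at 11.4 ± 1.28 FPKM, BF at 7.22 ± 1.4, Aki at 6.54 ± 4.29 and NTC at 5.34 ± 3.73 (SD, n = 4 each), and no neighbours in this order passed the test against each other.

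The log2 fold change of VIT_05s0077g01570 in BL against NTC was 1.72 ± 0.39 (adjusted p = 0.0091) with the retained libraries, a 3.14-fold ratio of means. It was called when any 1 of the 12 libraries was left out. Over all 16 libraries it was 1.32 ± 0.41 (adjusted p = 0.040), under the size of 1.4, and with NTC_R3 alone added to the 12 it was 1.31 (adjusted p = 0.070). In BF against NTC it was 1.01 ± 0.39 (adjusted p = 0.10) and in Aki 1.00 ± 0.39 (adjusted p = 0.15), so the rise passed the test in BL only. The difference of BL from BF, 0.71 ± 0.39 (95% interval -0.14 to 1.55, adjusted p = 0.65), did not pass, and that of Aki from BL, -0.72 ± 0.39 (adjusted p = 0.23), did not either. The study, by edgeR, lists VIT_05s0077g01570 as upregulated after BL.

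Relative to the leading gene, VIT_05s0077g01570 ran the other way from VIT_05s0077g01600. Per 1000 FPKM of VIT_05s0077g01580 it had 8.69 to 15.1 FPKM in Aki, 24.1 to 33.7 in BL, 19.3 to 22.8 in BF and 9.82 to 20.5 in NTC. The BL libraries lay above all others, and the BF libraries above all of Aki. This too is a description without a test. NTC overlapped with Aki and with BF, since NTC_R3 (20.5) and NTC_R4 (19.9) lay in the range of BF.

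VIT_05s0077g01540 was a gene of a few fragments that were found mostly in the Bacillus libraries. It had 0, 0, 1 and 1 fragments in Aki (R1 to R4), 4, 4, 6 and 3 in BL, 6, 3, 3 and 3 in BF, and 0, 0, 5 and 0 in NTC. In FPKM these were 0 to 0.131 in Aki, 0.490 to 0.998 in BL, 0.424 to 0.915 in BF and 0 to 0.756 in NTC. Every BL and BF library lay above every Aki library, and all 5 fragments of NTC came from NTC_R3. At these depths 3 fragments of this gene, which the table implies to be 480 bases long, correspond to 0.368 to 0.564 FPKM. That limit covers counting error only.

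The fit called VIT_05s0077g01540 in 4 contrasts, with sizes that depend on the pseudocount and are no bound. With the retained libraries the gene entered the test through the Bacillus groups alone, so no support is read from these calls. In BL against NTC the log2 fold change was 3.00 ± 0.53 (adjusted p = 0.0020) and over all 16 libraries 2.12 ± 0.63 (adjusted p = 0.030). In BF against NTC it was 2.52 ± 0.53 (adjusted p = 0.0064) and 1.95 ± 0.63 (adjusted p = 0.044). With NTC_R3 alone added to the retained libraries neither was called, at 2.23 (adjusted p = 0.052) and 1.75 (adjusted p = 0.14). The retained NTC libraries held 0 fragments, and the mean of the retained BL libraries was 1.66 times the floor of 3 fragments per library there. This value leaves out the counting error of BL, where BL_R4 itself held 3 fragments, so it is no lower bound. For BF against the retained NTC no fold is given, since both were at or under the floor. Over all 16 libraries the ratio of fragments was 3.57 for BL against NTC (95% counting interval 1.26 to 12.4) and 3.20 for BF against NTC (1.10 to 11.2). Counting intervals, here and below, are of fragments summed over libraries and leave out the spread between libraries. That spread was wide in NTC, where all 5 fragments came from NTC_R3.

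VIT_05s0077g01540 also had fewer fragments in Aki than in either Bacillus group. With the retained libraries it entered the test through the Bacillus groups alone. The values that follow are therefore a description, and no support is read from them. Against BL the log2 fold change in Aki was -2.20 ± 0.53 (adjusted p = 0.015) and over all 16 libraries -2.29 ± 0.63 (adjusted p = 0.021), and the call was lost without Aki_R2 (-1.81, adjusted p = 0.065) and without BL_R3 (-1.98, adjusted p = 0.067). Against BF it was -1.72 ± 0.53 (adjusted p = 0.043) and over all 16 libraries -2.13 ± 0.63 (adjusted p = 0.031). That call was kept in only 2 of the 12 fits that left out a retained library, over which the log2 fold change lay between -1.93 and -1.33. In fragments over all 16 libraries, Aki had 0.111 of the level of BL (95% counting interval 0.0125 to 0.470) and 0.125 of the level of BF (0.0138 to 0.536).

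VIT_05s0077g01550 had the same length of 480 bases and was as low. It had 0, 0, 2 and 0 fragments in Aki, 7, 6, 2 and 8 in BL, 3, 2, 4 and 0 in BF, and 2, 0, 5 and 1 in NTC. By FPKM every BL library lay above every Aki library. The closest, BL_R3 at 0.333 FPKM and Aki_R3 at 0.255 FPKM, held 2 fragments each and differed only by depth. In Aki against BL the log2 fold change was -2.54 ± 0.87 (adjusted p = 0.068) with the retained libraries, which missed the threshold, and -2.72 ± 0.73 (adjusted p = 0.019) over all 16, which was called. The retained fit also passed it without BF_R4 (-2.54, adjusted p = 0.038). Over all 16 libraries, Aki had 0.0824 of the fragments per total of BL (95% counting interval 0.00942 to 0.334). In BL against NTC the log2 fold change was 2.09 ± 0.87 (adjusted p = 0.11) and in BF 0.62 ± 0.87 (adjusted p = 0.71). In BL against BF it was 1.48 ± 0.87 (adjusted p = 0.66).

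VIT_05s0077g01540 and VIT_05s0077g01550 passed the filter on low values (0.5 FPKM in at least 3 libraries) through the Bacillus groups alone. Of the retained libraries at or above 0.5 FPKM, VIT_05s0077g01540 had 3 in BL and 1 in BF, and VIT_05s0077g01550 had 2 in BL and 1 in BF, with 0 in Aki and 0 in NTC for both. A gene that passes in this way had to differ between groups, so no support is read from its call. The other 5 members passed with retained libraries of more than 1 kind, and all 7 were tested. Since the study counted only uniquely mapping reads, reads that map equally well to near-identical copies of a tandem family were not counted, and the levels of all 7 genes are uncertain to that extent.

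VIT_05s0077g01530, the second gene of the cluster by level, varied least. It had 12.3, 16.0, 11.8 and 13.5 FPKM in Aki, 7.88, 10.8, 12.7 and 10.96 FPKM in BL, 8.98, 10.9, 9.42 and 9.58 FPKM in BF, and 8.22, 14.5, 8.50 and 10.7 FPKM in NTC. Every Aki library lay above every BF library. The highest library was 2.03 times the lowest, against 3.91 times for VIT_05s0077g01580, 6.00 times for VIT_05s0077g01570 and 24.1 times for VIT_05s0077g01600. It was called in no contrast, and its largest log2 fold change was 0.45 ± 0.18 in Aki against BF (95% interval 0.06 to 0.85, adjusted p = 0.12).

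VIT_05s0077g01560 had 0.405 to 1.19 FPKM in Aki, 0.598 to 1.22 in BL, 0.108 to 1.42 in BF and 0.641 to 1.52 in NTC. The groups overlapped in all contrasts, and the gene was called in none. Its largest log2 fold change with the retained libraries was 1.21 ± 0.48 in BL against BF (95% interval 0.17 to 2.24, adjusted p = 0.57). In 3 of the 16 libraries it had 3 fragments or fewer.

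Over all 16 libraries, the counts of members whose groups did not overlap were as follows. Aki and NTC did not separate for any member, nor did BL and NTC, where 5.61% and 21.1% of all genes tested did. BF lay below NTC for VIT_05s0077g01600 alone (17.3% of all genes separated, in either direction). Aki and BL separated for VIT_05s0077g01540, VIT_05s0077g01550 and VIT_05s0077g01600 (24.1% of all genes). For VIT_05s0077g01550 that separation is of FPKM only, since BL_R3 and Aki_R3 held 2 fragments each. Aki and BF separated for VIT_05s0077g01530, VIT_05s0077g01540 and VIT_05s0077g01600 (17.4% of all genes). BL and BF separated for VIT_05s0077g01570 (5.52% of all genes).

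Of the 4 genes with 3 fragments or more in all 16 libraries, 2 pairs were correlated across libraries. There were 6 pairs, tested by permutation of the libraries (100000 draws, two-sided) on log2(FPKM + 0.1) and adjusted over the 6. The permutation ran over all 16 libraries without regard to group. Its p-values therefore do not separate differences between groups from variation inside them. VIT_05s0077g01570 and VIT_05s0077g01580 had a Pearson r of 0.69 (permutation p = 0.0034, adjusted p = 0.021) and a Spearman rho of 0.68 (permutation p = 0.0049, adjusted p = 0.029). Their r was 0.55 without the 2 libraries farthest from the median of VIT_05s0077g01570. VIT_05s0077g01580 and VIT_05s0077g01600 had r = 0.62 (permutation p = 0.012, adjusted p = 0.035) and rho = 0.46 (permutation p = 0.078, adjusted p = 0.23). Without the 2 libraries farthest from the median of VIT_05s0077g01580, r fell to 0.25. The r over all libraries therefore depends on those 2, and r inside the groups is given below. VIT_05s0077g01570 and VIT_05s0077g01600 had r = -0.0018 over all libraries.

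Inside the groups the 3 genes ran closer together than these values show. Taken as deviations from the group means, r was 0.88 between VIT_05s0077g01570 and VIT_05s0077g01580, 0.86 between VIT_05s0077g01580 and VIT_05s0077g01600, and 0.71 between VIT_05s0077g01570 and VIT_05s0077g01600 (16 libraries, description only). The libraries share depth and composition between the genes. VIT_05s0077g01530 did not take part, with deviations that correlated at -0.10 with VIT_05s0077g01580, -0.19 with VIT_05s0077g01570 and -0.35 with VIT_05s0077g01600.

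**Figure D4:**
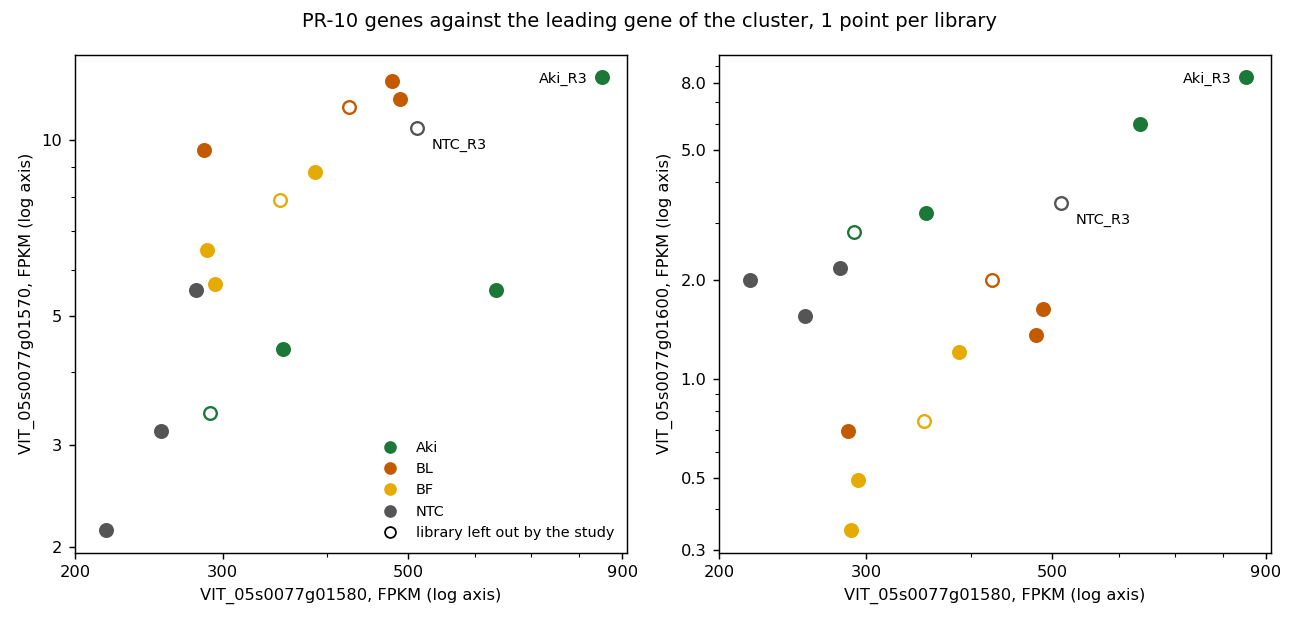
FPKM of VIT_05s0077g01570 (left) and VIT_05s0077g01600 (right) against FPKM of VIT_05s0077g01580, both on log axes, with 1 point per library coloured by group and open points for libraries that the study left out. In the right panel the BL and BF libraries form a band below the Aki and NTC libraries, and NTC_R3 lies at 512 FPKM of VIT_05s0077g01580.

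Between VIT_05s0077g01400 and VIT_05s0077g01700, the table lists 23 other genes by identifier, of which 5 were at 0 in every library and 16 passed the filter. VIT_05s0077g01520 and VIT_05s0077g01590, which stand next to or between the members in the order of identifiers, were among those at 0. With the retained libraries, 1 of the 16 was called higher in BL against NTC and 1 in BF against NTC, VIT_05s0077g01690 in both, beside 3.83% and 2.73% of all genes tested, and 0 were called in the other 4 contrasts. With all 16 libraries, 1 was called lower in Aki against BL (VIT_05s0077g01490) and 1 lower in Aki against BF (VIT_05s0077g01690), beside 2.37% and 2.22% of all genes, and 0 in the other 4. Counts of 1 of 16 are too small to set apart from these shares. The median log2 fold changes of the 16 were -0.14 in Aki, -0.04 in BL and -0.14 in BF against NTC with the retained libraries. The neighbour nearest in level to VIT_05s0077g01580 was VIT_05s0077g01670, with 163 to 396 FPKM over the 16 libraries. The order is that of the identifiers, and no coordinates were used.

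**Figure D5:**
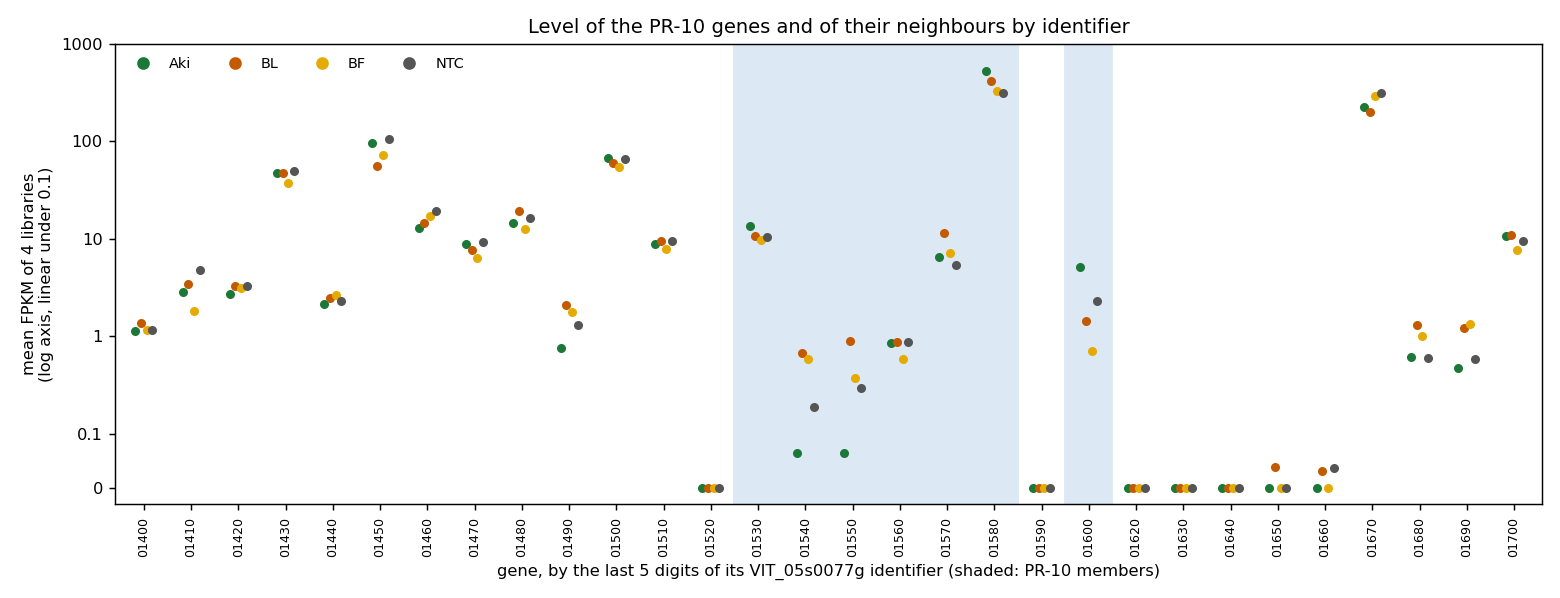
Mean FPKM of the 4 libraries of each group (y axis, log above 0.1 and linear below) for the genes VIT_05s0077g01400 to VIT_05s0077g01700 in the order of their identifiers (x axis). The 7 PR-10 genes are shaded, the groups Aki, BL, BF and NTC run from left to right within a gene, and VIT_05s0077g01580 stands at 533 FPKM in Aki and 316 FPKM in NTC.

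The study's own list of defense and stress genes holds 31 other genes with identifiers. It was picked on these samples, and only from genes that were higher after a treatment, so its direction was fixed by the choice and says nothing about the PR-10 genes. With the retained libraries 7 of the 31 were called higher in Aki against NTC, 21 in BL and 14 in BF. With all 16 libraries, 2, 19 and 11 were called higher.

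By Pearson r of log2(FPKM + 0.1) over the 16 libraries, the gene most like VIT_05s0077g01600 was VIT_01s0011g03110 (r = 0.947), with 30.5 to 46.0 FPKM in Aki, 18.1 to 28.6 in BL, 18.1 to 28.7 in BF and 28.9 to 38.8 in NTC. The gene most like VIT_05s0077g01540 was VIT_01s0010g02200 (r = 0.944), with 3.32 to 5.15 FPKM in Aki, 7.34 to 8.37 in BL, 7.30 to 10.2 in BF and 3.05 to 7.06 in NTC. These were the 2 highest values for any member, the second rests on a member of very few fragments, and neither gene is named here.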

How the data were processed

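Leaf RNA of 4 groups of 4 biological replicates was sequenced. The authors trimmed the reads, aligned them with STAR 2.6 to the 12X assembly of PN40024 and counted uniquely mapping reads (MAPQ of at least 30) per gene with featureCounts 1.6.1, and deposited FPKM calculated with edgeR. Each library was mapped to its group and replicate from its sample record.

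FPKM are not counts, so limma 3.58.1 (R 4.3.3) was run on log2(FPKM + 0.1). All 4 groups entered 1 model, moderated robustly with a trend on intensity, and genes had to reach 0.5 FPKM in 3 or more libraries. The study's own thresholds and its 12 retained libraries were used for the main values. The pseudocount understates the fold change of low genes. The values step by whole fragments, and all 25310 genes above 0 could be rebuilt as whole fragments (100% of them). The limit was 0.01 in a first pass and wider for any genes left over. These served for limits of 3 fragments, for exact counting intervals (95%, counting error only) and for an alternative fit with voom, chosen after seeing the data. The procedure was tested on simulated data with 200 changed genes. Correlations, tables and figures were computed with Python 3.11.15, pandas 2.3.3, NumPy 2.4.6, SciPy 1.17.1 and matplotlib 3.10.9.

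The 7 genes, set by their place in the cluster, and the lists were chosen with earlier results of these data known. All 7 genes are named with their values, and of the genes most like them the 2 with the highest r, whose identifiers carry no name here. Alternatives were 24 planned settings and 6 added after seeing the data. Gene sequences, coordinates and names were not used here, since the identifiers could not be paired with the reference table, and lists that need gene names (other PR classes, hormone receptors, markers of cell types) were not analysed here.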

Additional observations from a re-analysis of the deposited data

Results flagged for a closer look

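Among the 28 combinations of a PR-10 gene and a group of 4 libraries, 3 held a library far from the other 3. Chance gives such a gap in about 1 of 20 groups of normally distributed values, and whether the FPKM were so distributed was not tested. That rate does not hold for VIT_05s0077g01540 and VIT_05s0077g01550, where a single library above 0 makes the gap the whole range. VIT_05s0077g01540 had 0.756 FPKM in NTC_R3 and was at 0 in the other NTC libraries. VIT_05s0077g01560 had 1.52 FPKM in NTC_R3, against 0.641 to 0.687 FPKM in the other NTC libraries. VIT_05s0077g01550 had 0.255 FPKM in Aki_R3, which is 2 fragments, and was at 0 in the other Aki libraries. NTC_R3 is a library that the study left out, and Aki_R3 one that it retained.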

How the results depend on the processing

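No called fold change of a PR-10 gene turned round under the alternatives, and of 1173 recomputed values 1096 kept their direction and their side of the threshold, 39 lost a call, 11 gained one and 27 changed sign. Counts of called genes moved as follows, and the cause was not tested except where fewer genes were tested. They are given without the share of all genes called under each setting. Calls over all genes moved too. With a pseudocount of 1, BL against NTC had 176 genes higher and 168 lower, beside 398 and 371 in the main fit. BF against NTC had 102 and 112, beside 319 and 229. The counts are therefore a description, and no result on the cluster is read from them. In BL against NTC, 2 became 1 with all 16 libraries (voom and replicate block included), with a pseudocount of 1, with a filter of 1 FPKM or with the block on 12 libraries, and 0 with NTC_R3 added. In BF against NTC, 2 became 1 with the filter of 1 FPKM, without trend and robust moderation, with voom on 12 libraries or with NTC_R3 added, and 0 with a pseudocount of 1 or a separate fit. In Aki against BL, 2 became 1 with pseudocounts of 1 or 0.01, the filter of 1 FPKM or NTC_R3 added. In Aki against BF, 2 became 1 under those and under the block on 12 libraries, voom on 12 libraries and a separate fit. In Aki against BL, 2 became 3 with all 16 libraries (voom and replicate block included) and with Aki_R1 or BL_R1 added. In Aki against NTC, 0 became 1 by adjusted p alone, by voom on 12 libraries and by a separate fit. Leaving out 1 replicate gave 0 to 2 in Aki against NTC, 2 in BL against NTC, 1 to 2 in BF against NTC, 1 to 3 in Aki against BL, 1 to 2 in Aki against BF and 0 in BL against BF.

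The values that changed sign were small, and none belonged to a called difference. In BL against NTC, VIT_05s0077g01530 had -0.095 (replicate block, 12 libraries), -0.00057 (voom, 16) and -0.054 (BL_R1 added), and with 1 replicate left out -0.12 to 0.29. In BF against NTC it had -0.32 to 0.086 with 1 replicate left out. VIT_05s0077g01540 had -0.18 in Aki against NTC with all 16 libraries, with or without the block, and -0.021 with voom. VIT_05s0077g01560 had -0.029 there with all 16 libraries, with or without the block, -0.019 (block, 12 libraries), -0.16 (NTC_R3 added) and -0.21 to 0.47 with 1 replicate left out. In BL against NTC it had -0.087 (NTC_R3 added) and -0.12 to 0.34 with 1 replicate left out. In Aki against BL it had 0.081 (quantile normalization), 0.045 (voom, 12), 0.0040 (voom, 16), 0.058 (Aki_R1 added) and -0.40 to 0.28 with 1 replicate left out. VIT_05s0077g01570 had 0.055 (median-of-ratios), 0.073 (quantile) and 0.12 (voom, 12) in Aki against BF, and -0.47 to 0.29 with 1 replicate left out.

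No source used here says that a replicate number marks a shared batch or day, and the numbers were not taken to pair libraries. Deviations of same-numbered libraries correlated at -0.057 to 0.15 among the 12 retained and -0.36 to 0.37 among all 16, where the pairs of replicate 3 lay between 0.093 and 0.37. Of 12 retained libraries 6 correlated best with their own number, and of all 16, 10 did. With the replicate block on 12 libraries, VIT_05s0077g01570 in BL against NTC had 1.19 (adjusted p = 0.037) and was not called. Depth limits VIT_05s0077g01540, VIT_05s0077g01550 and VIT_05s0077g01560, whose differences rest on a few fragments.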
